A study of Mus musculus with 4 samples.

Results

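The genes described here mark the scarcer endocrine cells of the mouse pancreatic islet: the somatostatin-producing delta cells (Sst, Hhex, Rbp4, Ghsr), the cells that make pancreatic polypeptide and peptide YY (Ppy, Pyy, Etv1), and the ghrelin-producing epsilon cells (Ghrl). They were chosen by name, as every probe whose accession maps to 1 of these 8 genes, which gave 10 of the 56605 probes that are not controls and 8 of the 22911 genes with a symbol on the array. All 8 genes passed the filter on dim signal, for which a probe had to be well above background in both mice of 1 group or the other. Islet RNA of 4 mice was measured, each mouse on 1 single-colour Agilent array. The 2 arrays titled wild type held islets of mice with the genotype Pdx1-Cre, called control here, so the control mice carried the Cre transgene too. The 2 Rb-deficient arrays held islets of mice with the genotype Pdx1-Cre:Rbf/f, in which Cre, driven by the Pdx1 promoter, acts on floxed Rb alleles. Age, sex and strain are not given in the sources used here.

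Delta cells release somatostatin, which acts on neighbouring alpha and beta cells through somatostatin receptors and restrains the secretion of glucagon and insulin. PP cells release pancreatic polypeptide, a relative of peptide YY and neuropeptide Y, and lie mostly in islets of the part of the pancreas that forms from the ventral bud. Epsilon cells make ghrelin, are common around birth and scarce in the adult islet, and ghrelin acts on the receptor Ghsr, which in the islet is found on delta cells. The Pdx1 promoter is active in the early pancreatic bud, from which all islet hormone cells, acinar cells and duct cells derive. Blood vessels, stroma and immune cells have another origin.

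The promoters of the 4 hormone genes are shown because the results turn on these genes, and because Ppy and Pyy, neighbours on chromosome 11, varied together. The 150 bases before the transcription start are RefSeq's, build GRCm38.p6, each on the minus strand and written 5′ to 3′, at chr16:23890845-23890994 for Sst, chr11:102101320-102101469 for Ppy, chr11:102107833-102107982 for Pyy and chr6:113719912-113720061 for Ghrl. Capitals mark a match to a cAMP response element or a TATA box.
Sst: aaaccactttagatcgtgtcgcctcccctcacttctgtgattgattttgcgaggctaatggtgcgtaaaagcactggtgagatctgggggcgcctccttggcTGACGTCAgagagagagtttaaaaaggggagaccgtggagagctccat
Ppy: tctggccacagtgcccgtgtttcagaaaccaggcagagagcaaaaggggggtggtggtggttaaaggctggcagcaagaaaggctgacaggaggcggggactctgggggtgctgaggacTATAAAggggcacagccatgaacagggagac
Pyy: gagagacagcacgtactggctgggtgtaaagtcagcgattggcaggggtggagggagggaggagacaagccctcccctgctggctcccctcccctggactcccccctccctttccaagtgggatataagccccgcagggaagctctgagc
Ghrl: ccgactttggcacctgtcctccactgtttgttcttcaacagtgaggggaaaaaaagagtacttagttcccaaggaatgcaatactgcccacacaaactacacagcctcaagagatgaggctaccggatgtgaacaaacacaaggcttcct

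Both strands of such windows were searched for TGACGTCA, the cyclic AMP response element. The TATA box was searched as the letters TATAAA. The E2F site was searched in the forms TTTGGCGC and TTTCCCGC, E2F being the factor family that Rb binds. No matches of these motifs overlapped. The cAMP response element was found in Sst, starting 48 bases before the start, and in 1.36% of all 32851 promoter windows of this length. The TATA box was found in Ppy, 31 bases before the start, and in 7.57% of all windows. For each of the 8 genes 1 window was used, that of the outermost start. Ghrl has 4 windows and Pyy, Rbp4 and Etv1 have 2 each, and their other windows were not looked at by gene. Neither E2F form was found in the windows used, and they were found in 0.268% and 0.603% of all windows.

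Values are log2 of the processed spot signal minus the array's 75th percentile, so 0 is a signal at that percentile, and they are compared only within a probe. The 75th percentile itself was 361 to 488 intensity units, no spot was saturated, and 59.0% to 59.9% of probes were well above background on 3 arrays against 76.5% on control array 1. Control array 1 also had signal from 4 of 4 Y-linked genes, which were not well above background on the other 3 arrays, and lay at -7.40 for Xist where the others lay at -1.35 to -0.66. All 14 pan-endocrine, 10 beta cell and 12 acinar markers passed the filter on dim signal, so exocrine transcripts were measured along with those of the islet. The deleted gene, Rb1, was at 0.28 and 0.86 on the control arrays and at -0.48 and -0.90 on the Rb-deficient arrays. The groups were compared with limma over 26378 genes, with Benjamini-Hochberg adjustment and a threshold of 0.05. Nothing says how the mice relate to each other, and with 2 arrays a group a two-sided exact permutation test cannot give a p below 0.333.

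The ghrelin gene stood apart between the groups. The somatostatin gene had nearly the same signal on all arrays before scaling, and overlapping ranges after it. The pancreatic polypeptide and peptide YY genes differed more between the Rb-deficient mice than between the groups. Of the 8 genes, 4 had a higher and 4 a lower mean in Rb-deficient islets, with a median log2 difference of -0.07, which is that of all genes tested (-0.07). limma called 0 of the 8 genes, with adjusted p values (Benjamini-Hochberg) of 0.863 to 0.997, where 0% of all genes were called. Ghrl was the only one of the 8 with an unadjusted p under 0.05 in limma, where 5.66% of all genes had one, and the only one whose ranges did not overlap between the groups, where 36.0% of all genes had such ranges. In bulk RNA, fewer cells of a type and less RNA per cell cannot be told apart.

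**Figure D1:**
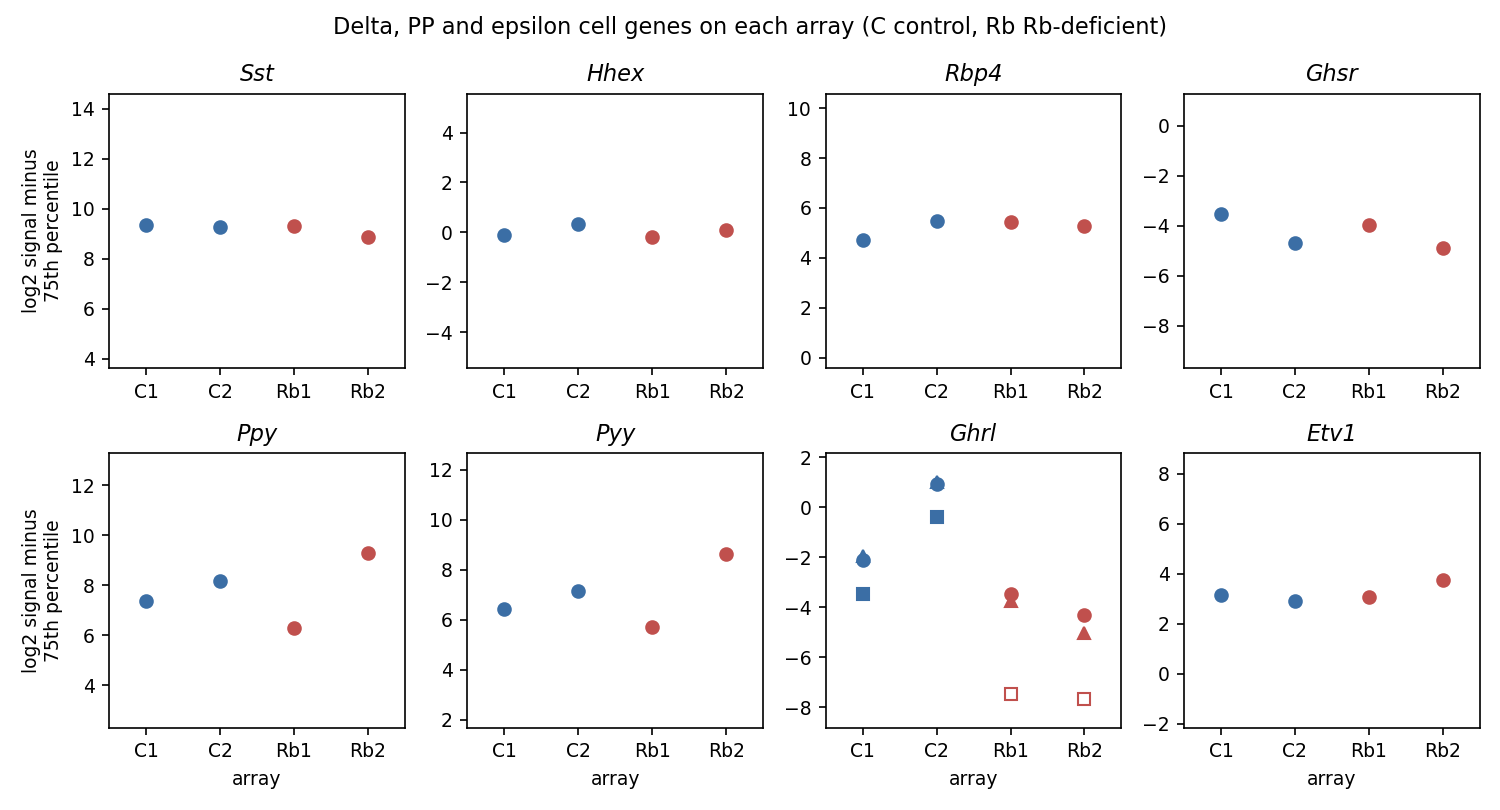
Log2 signal relative to the array's 75th percentile (vertical axis, the same span in each panel) on control arrays C1 and C2 (blue) and Rb-deficient arrays Rb1 and Rb2 (red), 1 panel per gene. Circles are the probe used for each gene, squares and triangles the other Ghrl probes, and open symbols mean that neither array of the group was well above background. All 3 Ghrl probes were lower on both Rb-deficient arrays, while Ppy and Pyy were lowest on Rb1 and highest on Rb2.

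Sst, the gene of somatostatin, lay at 9.37 and 9.26 on the control arrays and at 9.31 and 8.87 on the Rb-deficient arrays. The ranges overlapped, Rb-deficient array 2 being the lowest. Before scaling, the 4 spots read 238070, 251620, 230290 and 228230 intensity units in the same order, within 1.1-fold of each other. Other very bright genes, chosen after their values were seen, were as even before scaling, Ins1 (insulin) within 1.09-fold, Chga (chromogranin A) within 1.07-fold and 1 probe of Amy2a5 (amylase) within 1.06-fold. At a similar brightness, the other Amy2a5 probe spanned 2.02-fold and Gcg (glucagon) 2.34-fold, and Ppy on Rb-deficient array 2, at 304620 units, read above every Sst spot. Only 12 to 29 probes per array were brighter than Sst, and the brightest read 500923 to 551045 units. Over the 77 probes with a mean level no more than 1 log2 unit below Sst, the median span was 1.31-fold, against 1.56-fold over 520 probes at a level of 5 to 6. Whether spots this bright respond in proportion to RNA was not tested. After scaling, control islets had a mean of 9.31 ± 0.08 (SD, n = 2), and the Rb-deficient mean was 9.09 ± 0.31 (SD, n = 2). The difference of -0.23 (standard error 0.24, limma, adjusted p 0.867 by Benjamini-Hochberg) had a 95% interval from -0.89 to 0.44. That interval reaches from 1.86-fold lower to 1.36-fold higher. The sign turned to 0.24 with quantile normalization and 0.21 with scaling to the array median.

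The other delta cell genes had overlapping ranges too. Hhex, a homeobox factor that delta cells require, lay at -0.09 and 0.33 in control and at -0.20 and 0.10 in Rb-deficient islets, with overlap. Its difference of -0.17 had a 95% interval from -0.88 to 0.54 and turned to 0.27 with scaling to the array median and 0.04 without control array 2. Rbp4, the plasma carrier of retinol and a delta cell marker, lay at 4.70 and 5.47 in control and at 5.43 and 5.28 in Rb-deficient islets. Its lowest value was that of control array 1, its difference 0.27 with a 95% interval from -0.66 to 1.20, and without control array 1 the difference was -0.11.

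Ghsr, the ghrelin receptor, lay at -3.52 and -4.69 in control and at -3.97 and -4.90 in Rb-deficient islets. These signals were low, 15.9 to 31.5 intensity units, though well above background on all arrays. Array 1 was the higher one in both groups, by 2.25-fold in control and 1.90-fold in Rb-deficient islets. The difference between groups was -0.33 with a 95% interval from -1.93 to 1.27. The sign turned when Rb-deficient array 2 (0.13) or control array 1 (0.25) was left out, to 0.30 with quantile normalization and 0.10 with scaling to the array median, while it was -0.92 and -0.80 when control array 2 or Rb-deficient array 1 was left out.

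Ppy, the gene of pancreatic polypeptide, lay at 7.36 and 8.17 on the control arrays and at 6.30 and 9.28 on the Rb-deficient arrays. The Rb-deficient arrays thus held both the lowest and the highest value, 7.91-fold apart, while the controls were 1.76-fold apart. The group means were nearly equal, 7.77 ± 0.58 (SD, n = 2) for control and 7.79 ± 2.11 (SD, n = 2) for the Rb-deficient group. The difference of 0.03 (standard error 1.13, limma, adjusted p 0.997 by Benjamini-Hochberg) had a 95% interval from -3.18 to 3.23, or from 9.04-fold lower to 9.38-fold higher. The direction depended on which Rb-deficient mouse was kept, with -1.47 without Rb-deficient array 2 and 1.52 without array 1. Leaving out control array 1 gave -0.38, and leaving out control array 2 gave 0.43.

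Pyy, which encodes peptide YY, followed the same course. It lay at 6.42 and 7.13 in control and at 5.70 and 8.64 in Rb-deficient islets. The Rb-deficient arrays were 7.70-fold apart and the controls 1.64-fold. The difference between groups was 0.39 with a 95% interval from -2.74 to 3.53 (limma, adjusted p 0.940 by Benjamini-Hochberg). Leaving out Rb-deficient array 2 gave -1.08 and leaving out Rb-deficient array 1 gave 1.87, while the fits lacking control array 1 or 2 gave 0.04 and 0.75.

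Relative to their own means over the 4 arrays, Ppy and Pyy were within 0.238 of each other on every array. By Euclidean distance of such centred values, 1 of 23940 genes with signal on all arrays lay nearer to Ppy than Pyy did, at a distance of 0.38 for Pyy. Only 0.519% of all genes tested had Rb-deficient arrays as far apart as Ppy, and 0.546% as far as Pyy, while in control 14.7% and 18.4% of genes had gaps as large as theirs. With 4 arrays such likeness is a description. Fev, a transcription factor gene chosen after its values were seen, was also higher on array 2 of each group. It lay at -2.16 and -1.37 in control and at -2.82 and -1.08 in Rb-deficient islets. The other PP and epsilon cell genes listed with Fev and past the filter were divided between the Rb-deficient arrays. Fxyd2, Sertm1 and Acsl1 were higher on array 2 than on array 1, while Meis1, Meis2, Slitrk6, Id4 and Anxa13 were lower.

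**Figure D2:**
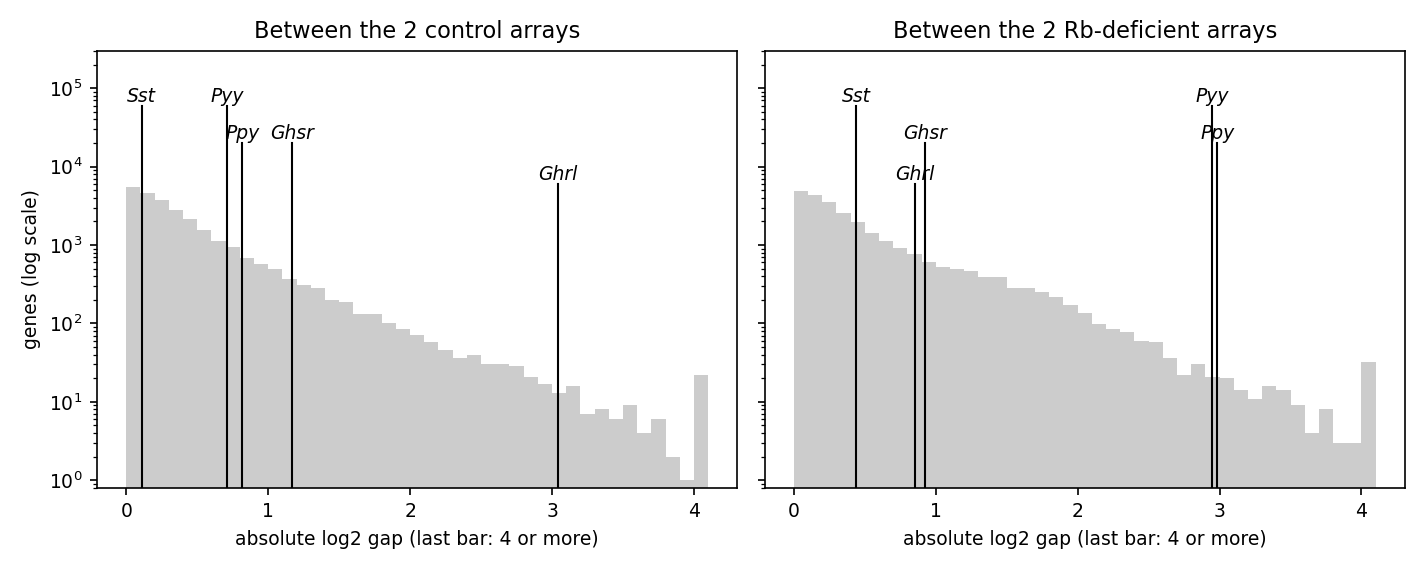
Number of genes (vertical axis, log scale) by the absolute log2 gap between the 2 arrays of a group (horizontal axis, bins of 0.1), for control on the left and Rb-deficient on the right, with lines at the gaps of 5 of the genes. Ghrl is far out among the controls at 3.04, and Ppy and Pyy are far out among the Rb-deficient arrays at 2.98 and 2.95, while Sst lies within the bulk in both.

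Etv1, an ETS family transcription factor with higher expression in PP cells, lay at 3.15 and 2.90 in control and at 3.08 and 3.76 in Rb-deficient islets. As for Ppy and Pyy, Rb-deficient array 2 was the highest, but the step between the Rb-deficient arrays was 1.60-fold. The difference was 0.40 (standard error 0.31) with a 95% interval from -0.49 to 1.28 (limma, adjusted p 0.863 by Benjamini-Hochberg). It was 0.06 without Rb-deficient array 2, 0.74 without Rb-deficient array 1 and 0.84 with scaling to the array median.

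Ghrl, the ghrelin gene, has 3 probes, and all were lower on both Rb-deficient arrays than on both control arrays. The brightest on average, A_55_P2506805, lay at -2.12 and 0.92 in control and at -3.46 and -4.31 in Rb-deficient islets. The lowest control was 2.53-fold above the highest Rb-deficient array. The means were -0.60 ± 2.15 (SD, n = 2) and -3.88 ± 0.60 (SD, n = 2), a difference of -3.29 (standard error 1.16), or 9.76-fold lower in Rb-deficient islets. The 95% interval ran from -6.55 to -0.02, the unadjusted p in limma was 0.049 and the adjusted p (Benjamini-Hochberg) 0.863, so the gene was not called. Only 0.315% of all genes tested had a difference as large in size, while 5.53% had a p as low.

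The second probe, A_55_P2022399, gave the same order, with -1.95 and 1.01 in control and -3.73 and -5.05 in Rb-deficient islets, 15.1-fold lower. The third, A_52_P675556, lay at -3.46 and -0.39 in control but on the Rb-deficient arrays it was not well above background, at -7.46 and -7.67. Its signal was at least 10.8-fold lower there. That bound sets the control mean against the lowest signal well above background on each Rb-deficient array. The 3 probes share the RNA of each array and are not replicates.

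The size of the Ghrl difference rested on the controls, which were themselves 8.23-fold apart. Only 0.341% of genes had controls as far apart. Array 2 was the higher control in all 3 probes, by 2.97 to 3.08 on the log2 scale. Without control array 2 the difference was -1.77, or 3.40-fold lower, and without control array 1 it was -4.81, or 28.0-fold lower. Control array 1 was also the array with Y-linked signal, so the fit lacking it compares arrays that all lack such signal. The part of sex in the gap between controls was not tested. Control array 1, the lowest control for Ghrl, had 76.5% of probes well above background, more than any other array. As the only control, it gave a median difference of -0.38 over the 34649 genes then tested, against -0.07 in the main fit. The part of this general shift in the Ghrl value of -1.77 was not tested. Without Rb-deficient array 1 the difference was -3.71 and without array 2 it was -2.86. Averaging the 3 probes gave -4.28 and normexp background correction -2.12. Ghrl was lower in all 14 alternatives, with adjusted p values (limma, Benjamini-Hochberg) from 4.49e-05 to 1. It was called in 1 of them, scaling to the array median, where the difference was -2.85. In that setting limma gave every gene the same error and the distance between the controls did not enter.

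**Figure D3:**
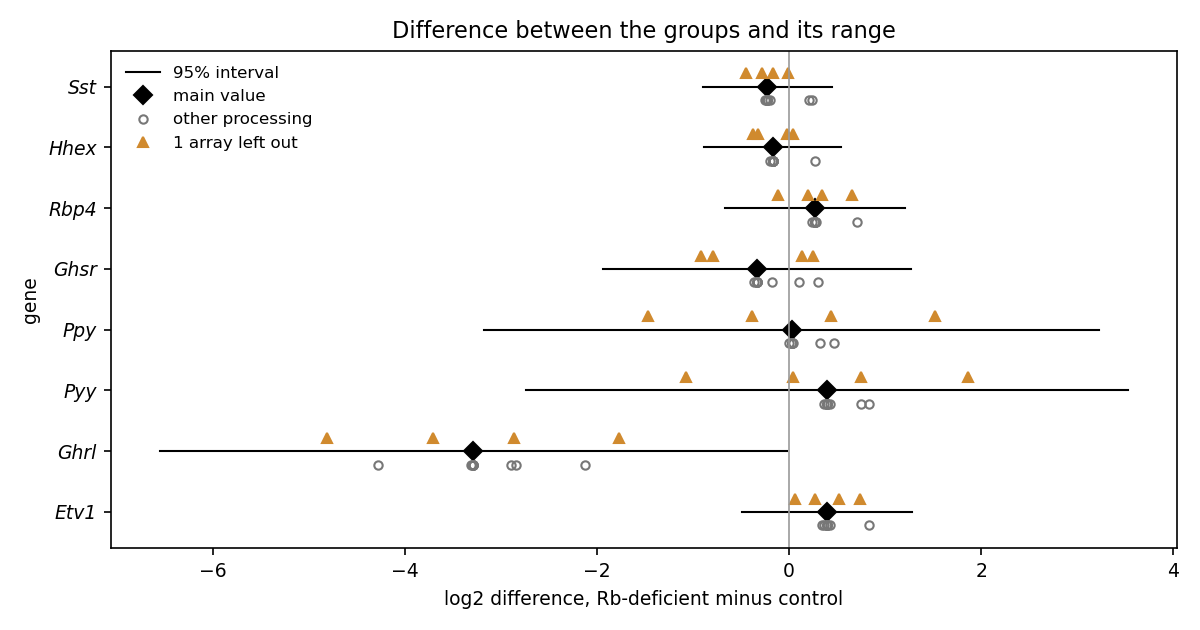
Log2 difference, Rb-deficient minus control (horizontal axis), of the 8 genes, with black diamonds for the main value, black lines for its 95% interval from limma, grey circles for other processing and orange triangles for fits without 1 of the 4 arrays. Ghrl lies below 0 in each case shown, from -4.81 to -1.77, and Ppy and Pyy range widest among the rest.

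Genes of the surrounding pathways were taken from lists of 7 themes, and limma called 0 of their members. Beside the counts of higher and lower genes below, 58.1% of all genes tested were lower in mean in Rb-deficient islets. Of the 26378 genes, 2119 were 2-fold lower or more and 448 were 2-fold higher or more. In the somatostatin list, 6 of 7 genes passed the filter, 1 higher and 5 lower, with a median of -0.16. The receptor genes Sstr1, Sstr3, Sstr4 and Sstr5 differed by -0.14, 0.04, -0.12 and -0.18, and Sstr2 was not well above background on any array. Cort, a relative of somatostatin that binds the same receptors, lay at -1.12 and -1.44 in control and at -1.60 and -1.66 in Rb-deficient islets, and Sstr5 at 2.42 and 2.43 against 2.25 and 2.24. Both had ranges that did not overlap, and the signs turned, to 0.09 for Cort and 0.26 for Sstr5, with scaling to the array median, as did the list's median, to 0.28. The other Sstr5 probe differed by -0.0022.

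Of the PP-fold peptides, their receptors and the peptidase Dpp4, 5 of 9 passed the filter, 3 higher and 2 lower, with a median of 0.03. Npy, the gene of neuropeptide Y, lay at 0.01 and 1.01 in control and at -0.26 and -0.98 in Rb-deficient islets, 2.19-fold lower with no overlap. Unlike Ppy and Pyy it was lower on Rb-deficient array 2 than on array 1. Dpp4, which trims peptide YY and neuropeptide Y, was 1.31-fold higher, and its other probe differed by 0.17. The receptor genes Npy2r, Npy4r, Npy5r and Npy6r did not pass the filter.

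In the ghrelin list all 4 genes that passed the filter, of 6, were lower in mean, with a median of -0.84. Besides Ghrl and Ghsr these were Bche, a cholinesterase that cleaves the acyl group from ghrelin, and Mrap2, an accessory protein of the ghrelin receptor. Bche lay at -2.02 and -2.37 in control and at -3.25 and -3.82 in Rb-deficient islets, a difference of -1.34 (standard error 0.29, limma, adjusted p 0.698 by Benjamini-Hochberg) with no overlap, and -0.67 with normexp. Its other probe was well above background on 1 array only. Mrap2 differed by -0.07. Mboat4, which encodes the enzyme that attaches the acyl group to ghrelin, was not well above background on any array, at -6.43 to -5.52. Leap2, an antagonist of the ghrelin receptor, had signal well above background on 1 array only.

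Around Rbp4, 4 of 6 retinol transport genes passed, 1 higher and 3 lower, with a median of -0.45. Ttr, transthyretin, the partner of Rbp4 in plasma and also an alpha cell gene, lay at 7.17 and 7.18 in control and at 6.76 and 6.08 in Rb-deficient islets, 1.69-fold lower with no overlap, and its other probe differed by -0.39. Around Etv1, 7 of 7 genes passed, 5 higher and 2 lower, with a median of 0.20. Spry4 and Spry2, feedback inhibitors of receptor tyrosine kinase signalling, were 2.06-fold and 1.25-fold higher and Etv5, a close relative of Etv1, 1.22-fold lower, each without overlap. The Spry4 difference of 1.04 was 0.29 without Rb-deficient array 2, 1.80 without Rb-deficient array 1, 0.31 with normexp and 1.80 with quantile normalization. The other Spry2 probe differed by -0.25, and the mean over both was 0.034. The Etv5 difference turned to 0.15 with scaling to the array median.

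Further delta cell genes, 9 of 11 of which passed, were higher for 6 and lower for 3, with a median of 0.20. The endothelin gene Edn3, counted among the lower ones, passed the filter through the control arrays alone. It was not well above background on the Rb-deficient arrays, so the filter itself favoured a lower mean there. Its log2 difference of -1.24 with the main scaling shrank to -0.26 with normexp and -0.04 with quantile normalization. Spock3, a proteoglycan gene, was 1.53-fold higher, a difference of 0.61 that was 1.36 with quantile normalization. Lepr, the leptin receptor gene, was 1.48-fold lower, but its probes disagreed, another differing by 0.65, and the mean over its probes was 0.04. Further PP and epsilon cell genes, 9 of 10 of which passed, were higher for 3 and lower for 6, with a median of -0.17 that turned to 0.13 with quantile normalization and 0.27 with scaling to the array median. Anxa13, an annexin gene, lay at -1.13 and -1.15 in control and at -2.48 and -2.93 in Rb-deficient islets, 2.96-fold lower (standard error 0.24 on the log2 scale, limma, adjusted p 0.513 by Benjamini-Hochberg), with -0.97 under normexp, and its other probe differed by -1.93. Slitrk6, a neuronal adhesion gene, was 1.28-fold higher.

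**Figure D4:**
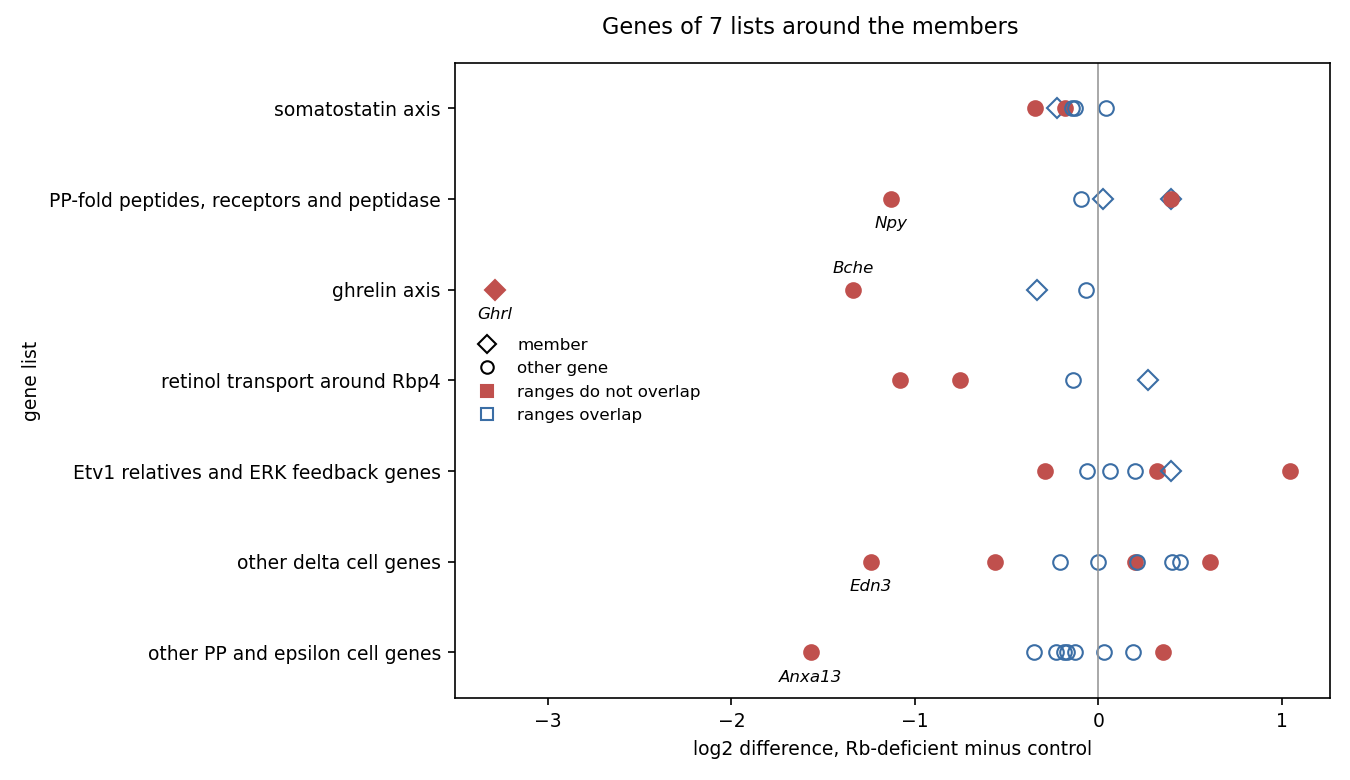
Log2 difference, Rb-deficient minus control (horizontal axis), of the genes that passed the filter in the 7 lists (vertical axis), with diamonds for those of the 8 genes that are in a list (all but Hhex) and red filled symbols for genes whose ranges do not overlap. Ghrl at -3.29 lies farthest from 0, followed by Anxa13 at -1.57 and Bche at -1.34, and names are given for the genes farthest from 0.

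Markers of other cells were counted in the same way, and limma called 0 of them. Beta cell markers were even, 5 of 10 higher, with a summed linear level of 3518 and 3150 in control and 3407 and 2433 in Rb-deficient islets, arrays 1 and 2 in that order here and below, in units of the 75th percentile. Alpha cell markers were lower for 6 of 8, 5 of them without overlap, where 20.7% of all genes tested were lower and 15.3% higher without overlap. Their summed level was 839 and 862 in control against 735 and 349 on Rb-deficient arrays 1 and 2, and Gcg, the glucagon gene, lay at 9.34 and 9.44 against 9.26 and 7.96. Acinar markers were lower for 12 of 12, with sums of 9701 and 7929 against 7431 and 4485. Macrophage markers were higher for 9 of 10, with sums of 45.3 and 43.5 against 49.3 and 39.2. These sums were carried by Itgam, an integrin gene and the 1 marker that was lower (-0.27). Without it the sums were 9.86 and 10.4 against 11.8 and 17.6, and 8 of the other 9 markers were highest on Rb-deficient array 2. Of the other lists, ductal markers were lower for 6 of 7 (20.8 and 14.3 against 11.0 and 14.7) and endothelial markers higher for 6 of 6 (34.8 and 41.3 against 40.1 and 49.1). Stromal markers were higher for 4 of 7 (9.11 and 10.6 against 8.81 and 15.4) and Schwann and neural markers for 4 of 6 (17.9 and 23.0 against 25.0 and 27.9).

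Rb-deficient array 2, where Ppy and Pyy were highest and Ghrl lowest, had the lowest summed level of the alpha and acinar markers. It was also the lowest for the beta and pan-endocrine sums (for the latter 2907 and 2630 against 3036 and 2493). The same held for the sum of the somatostatin list (729 and 667 against 708 and 518), which was carried by Sst itself. The 75th percentile that divides these sums was highest on that array, 488 units against 361 to 411. Before scaling, the bright genes Sst, Ins1 and Chga were each within 1.1-fold over the arrays. The part of scaling in these sums was not tested. The macrophage sum was lowest on that array with Itgam and highest there without it (9.86 and 10.4 against 11.8 and 17.6). Endocrine markers of the gut were mostly dim, with 2 of 5 past the filter. Of these Cck, the cholecystokinin gene, chosen after its values were seen, lay at -0.54 and -2.23 in control and at -3.49 and 1.40 in Rb-deficient islets. It was highest on the array where Ppy and Pyy were highest. Gip, Tph1 and Nts did not pass the filter. The alpha, acinar and ductal medians of -0.77, -0.61 and -0.62 kept their sign in all alternatives but not their size. With scaling to the array median they were -0.33, -0.17 and -0.19, with quantile normalization -0.67, -0.29 and -0.28, and the ductal median was -0.30 with normexp. With 1 array left out, the alpha median ranged from -1.14 (without Rb-deficient array 1) to -0.58 (without array 2). The acinar median ranged from -1 to -0.29 in the same 2 fits, and the ductal median from -0.85 without control array 2 to -0.34 without Rb-deficient array 2. The macrophage median of 0.60 was 1.04 with scaling to the array median, 0.35 without Rb-deficient array 2 and 1.15 without Rb-deficient array 1. The part of these other cells in the values of Ghrl, Ppy and Pyy was not tested.

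The genes nearest in pattern, by Euclidean distance of the centred values over 4 arrays among 14994 named genes with signal on all arrays, were listed for the hormones, leaving out the 8 genes themselves. Nearest to Sst were Trem1, Nsmaf and Map11, at distances of 0.019 to 0.024, and 6040 genes lay within 0.5 of it. Sst varied little, and any gene that hardly varies between arrays falls within that distance. The count therefore does not show a shared course. Nearest to Ppy were Pqlc3, Lrg1 and Chn2, at 0.36 to 0.51, with 2 genes within 0.5, Pyy not counted. Pyy itself, at 0.38, lay between Pqlc3 and Lrg1. Nearest to Pyy were Rcn3, Tspan8 and Lrg1, at 0.30 to 0.44, with 5 genes within 0.5, Ppy not counted. Ppy lay between Tspan8 and Lrg1. Nearest to Ghrl were Afm, Tdh and Aqp8, at 1.74 to 2.03, and no named gene lay within 0.5 of it.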

How the data were processed

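Per the labels' protocols, islet RNA was labelled with Cy3. The scans were read with Feature Extraction 12.0.3.1, per the file headers, and the deposited intensity has the local background removed and a spatial trend corrected. Arrays were not scaled to each other. The authors' value table holds the same intensity times a constant per array (1.74 to 2.49, origin unknown; column medians 220.06, 180.7, 188.3 and 157.33) and served as an alternative. All 4 arrays shared 1 slide.

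Accessions were named through RefSeq (GRCm38.p6), 32994 of 56605 probes. Control and outlier-marked spots were left out, spots of a probe averaged, and the brightest probe of a gene used. limma 3.58.1 in R 4.3.3 (2 residual and 1.82 prior degrees of freedom) was fitted to the log2 of the deposited intensity over all genes and tested on simulated data. The files have no mean spot signal, so normexp (offset 50) used the median spot signal. The number of arrays limits the precision.

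The 8 genes and the lists were chosen with earlier results of these data known. Named are the 8 genes, Rb1, of each list up to 3 called members or otherwise those without overlap and with the largest differences, the 3 genes nearest in pattern to each hormone gene, and marker lists by counts. Some genes that fall under this rule are not reported here. Any other gene was picked with its values in view. The alternatives were other background correction, scaling, value table, dim and outlier filters, probe rules, the replicate number as a block and leaving out each array.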

Additional observations from a re-analysis of the deposited data

How the results depend on the processing

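limma called 0 genes in most settings, 480 with scaling to the array median and, with 1 array left out, 0 to 4091 (4091 without control array 2, with 34649 genes tested). Of the 8 genes, 1 (Ghrl, -2.85) was called with scaling to the array median, where the prior was infinite and the median difference of all genes went from -0.07 to 0.37, and 0 with any array left out. Leaving out each array in turn, the log2 differences ranged from -0.45 to -0.01 for Sst, -0.38 to 0.04 for Hhex, -0.11 to 0.65 for Rbp4, -0.92 to 0.25 for Ghsr, -1.47 to 1.52 for Ppy, -1.08 to 1.87 for Pyy, -4.81 to -1.77 for Ghrl and 0.06 to 0.74 for Etv1. With scaling to the array median the sign turned for Sst (0.21), Hhex (0.27), Ghsr (0.10), Cort (0.092), Etv5 (0.15) and Sstr5 (0.26). With quantile normalization it turned for Sst (0.24) and Ghsr (0.30), with the deposited value table for Ppy (-0.0038) and with the mean over probes for Lepr (0.042). Scaling to the array median moved the differences of all these genes by the same amount, and so did the deposited value table by a smaller amount. Those sign turns are thus a shared offset between the groups. The probes of Lepr disagree in sign. The cause of the turns with quantile normalization was not tested. The sign also turned for Ppy (-1.47), Pyy (-1.08) and Ghsr (0.13) when Rb-deficient array 2 was left out, for Ppy (-0.38), Rbp4 (-0.11) and Ghsr (0.25) when control array 1 was, and for Hhex (0.039) when control array 2 was.

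The replicate number does not pair the mice by any label. Over genes, the deviations of control array 1 and Rb-deficient array 1 from their group means correlated at 0.295. With the number as a block limma called 0 genes, the lowest adjusted p of the 8 genes was 0.453, that of Ghrl, and 3160 genes had an unadjusted p under 0.05, against 1493 without the block. A slide block could not be fitted on 1 slide.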
